A study of Homo sapiens with 18 samples.

Results

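NRF2, the transcription factor encoded by NFE2L2, drives a set of antioxidant and detoxification genes. The 9 genes described here are NFE2L2 itself, KEAP1, and the target genes HMOX1, NQO1, OSGIN1, TXNRD1, SRXN1, GCLC and GCLM. They were taken by gene symbol from a table of 26475 symbols, not by a cut on their measured values. The list of symbols was nevertheless chosen with earlier results of these data known. Each of the 9 passed the filter on low counts in every fit. RNA-seq was performed on Mel92.1 and MP41 (Mel 92.1 and MP-41 in the cell line labels), which are human lines from uveal melanoma. Each was kept in DMSO or treated for 48 h with 1 μM of UNC0642 or A366, which gave 6 groups of 3 libraries and 18 libraries in all. The labels give no duration for DMSO. UNC0642 and A366 are inhibitors of EHMT2 (G9a), an enzyme that methylates lysine 9 of histone H3, and of the related EHMT1. The labels give RPMI medium with 10% serum for both lines, while the study's methods give MP41 a higher share of serum than the labels do, so whether the lines shared a medium is not settled here. The labels name no deletion or transgene in any of the 6 groups. Each line was derived from a single tumor. The deposited series text calls the replicates biological, and nothing further says how the cultures were separated.

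In unstressed cells KEAP1 binds the NRF2 protein and passes it to a ubiquitin ligase, so that NRF2 is kept low by degradation rather than by its mRNA level. Oxidants and electrophiles modify KEAP1, NRF2 then escapes degradation, pairs with small MAF proteins and binds antioxidant response elements near its target genes. The targets make glutathione (GCLC, GCLM), reduce thioredoxin and sulfiredoxin substrates (TXNRD1, SRXN1), break down heme (HMOX1) and reduce quinones (NQO1). A count of mRNA therefore reads the targets directly and NRF2 activity only through them.

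In 4 libraries the profile went against the labelled cell line. They carry the labels A366 replicates 2 and 3 of Mel92.1 and of MP41. By Spearman correlation over 15799 genes, these 4 matched the DMSO libraries of the line opposite to their label at 0.977 to 0.996, and those of their labelled line at 0.874 to 0.886. The other 14 libraries matched their own labelled line at 0.974 to 0.997 and the other line at 0.863 to 0.886. The 4 libraries were exchanged between the lines below, as the study's own supplementary listing also places them, and are called by the line in which they were placed. Changes with A366 are also given without these 4 libraries and as labelled. Without the 4, each line has 1 A366 library, whose spread is then taken from the other groups of the fit, so a pass there is no replicate check of A366.

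CPM below is the count scaled to the TMM-normalized library size. The libraries held 23601156 to 62941462 counts (median 41955693). The Mel92.1 UNC0642 replicate 1 library stood apart, with the lowest total, 32.79% of its counts on 4 ribosomal RNA genes and 13344 genes with a count. Mel92.1 UNC0642 replicate 3 had 19.54% on those genes, and the other 16 libraries had 3.308% to 12.52%. Of 7 melanocytic markers, none was at 0, and their summed level was 22007 to 22413 CPM in the DMSO libraries of Mel92.1, 23795 to 24415 for UNC0642 and 21012 to 21608 for A366. In MP41 it was 14999 to 15214, 15578 to 15973 and 15617 to 16193 CPM. The summed level of 5 NK cell markers was at most 1.27 CPM in any library, with KLRD1 under 0.05 CPM in each of the 6 groups. That of 4 fibroblast markers was 48.4 to 53.3 CPM in Mel92.1 with DMSO and 35.4 to 45.7 with UNC0642. There COL1A2 was under 0.05 CPM, as was DCN with UNC0642, and the other markers made up the sum. In MP41 the sum was 27.3 to 30.2 with DMSO and 22.4 to 23.3 with A366. That of 4 epithelial markers was at most 9.94 CPM in Mel92.1. There KRT19 was under 0.05 CPM, as was EPCAM with either inhibitor, and the other markers made up the sum. In MP41 it was 0.761 to 2.32 with DMSO and 0.0805 to 0.173 with A366. The part of these differences in the results was not tested. In bulk RNA, fewer cells of a kind and less RNA per cell cannot be told apart.

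To show the letters that NRF2 is known to bind, the RefSeq promoter windows of the 9 genes (build GRCh38, 250 bases before to 50 bases after each start) were searched on both strands for TGACNNNGC, the core of the antioxidant response element, and for TGAGNNNGC. Windows matched 8 of the 9 genes, all but HMOX1, with 11 windows. TGACNNNGC was in the windows of 3 of these genes and TGAGNNNGC in those of 6, while 13.3% and 18.3% of 35116 windows of the same length, and 16.1% and 21.6% of the 27305 genes these belong to, held them. Of the genes called against DMSO, GCLC had no match to either, and NQO1 had a TGAGNNNGC match that is not printed. The 4 stretches below were chosen because they belong to genes the results turn on. They are written 5′ to 3′ on the strand of the gene, with the match in capitals, and in each of the 4 the element reads on the opposite strand. These genes, OSGIN1 apart, also held matches that are not printed. Among them are TGACACGGC at position -54 of KEAP1 and TGACTTCGC at position -99 of the first start of TXNRD1, both on the strand of the gene. The shared strand therefore describes the printed matches only.
GCLM: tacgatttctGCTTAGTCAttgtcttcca
KEAP1: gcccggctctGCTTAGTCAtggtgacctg
TXNRD1: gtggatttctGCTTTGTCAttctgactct
OSGIN1: acgggcccctGCTGACTCAcgcttatgaa
The GCLM stretch lies at chr1:93909446-93909474 (minus strand), with its match at position -34 from the RefSeq start, which touches a 5′ UTR exon of 1 GENCODE 29 transcript. The KEAP1 stretch, at chr19:10502784-10502812 (minus strand), holds the same 9 letters TGACTAAGC at position -31, inside a 5′ UTR exon of 1 GENCODE transcript. The TXNRD1 stretch, at chr12:104286920-104286948 (plus strand), holds TGACAAAGC at position -102 of a second start, inside the 5′ UTR exon of 6 GENCODE transcripts. The OSGIN1 stretch, at chr16:83953131-83953159 (plus strand), holds TGAGTCAGC at position -99, between exons of the gene in GENCODE. Its letters TGAGTCA are also an AP-1 element. A match is a description of the letters only, and no binding was measured.

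The levels of the 9 genes are given first. Per kilobase of the longest transcript, NQO1 was the highest of the 9 in both lines, with 490 CPM per kb in Mel92.1 and 364 in MP41 with DMSO. TXNRD1 followed with 120 and 150 CPM per kb. The lowest was GCLM in Mel92.1 (5.34 CPM per kb) and GCLC in MP41 (4.67 CPM per kb). The counts behind these levels were ample, with medians over libraries from 963 for HMOX1 to 53495 for NQO1. The lowest count of a library was 229, for GCLM.

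**Figure D1:**
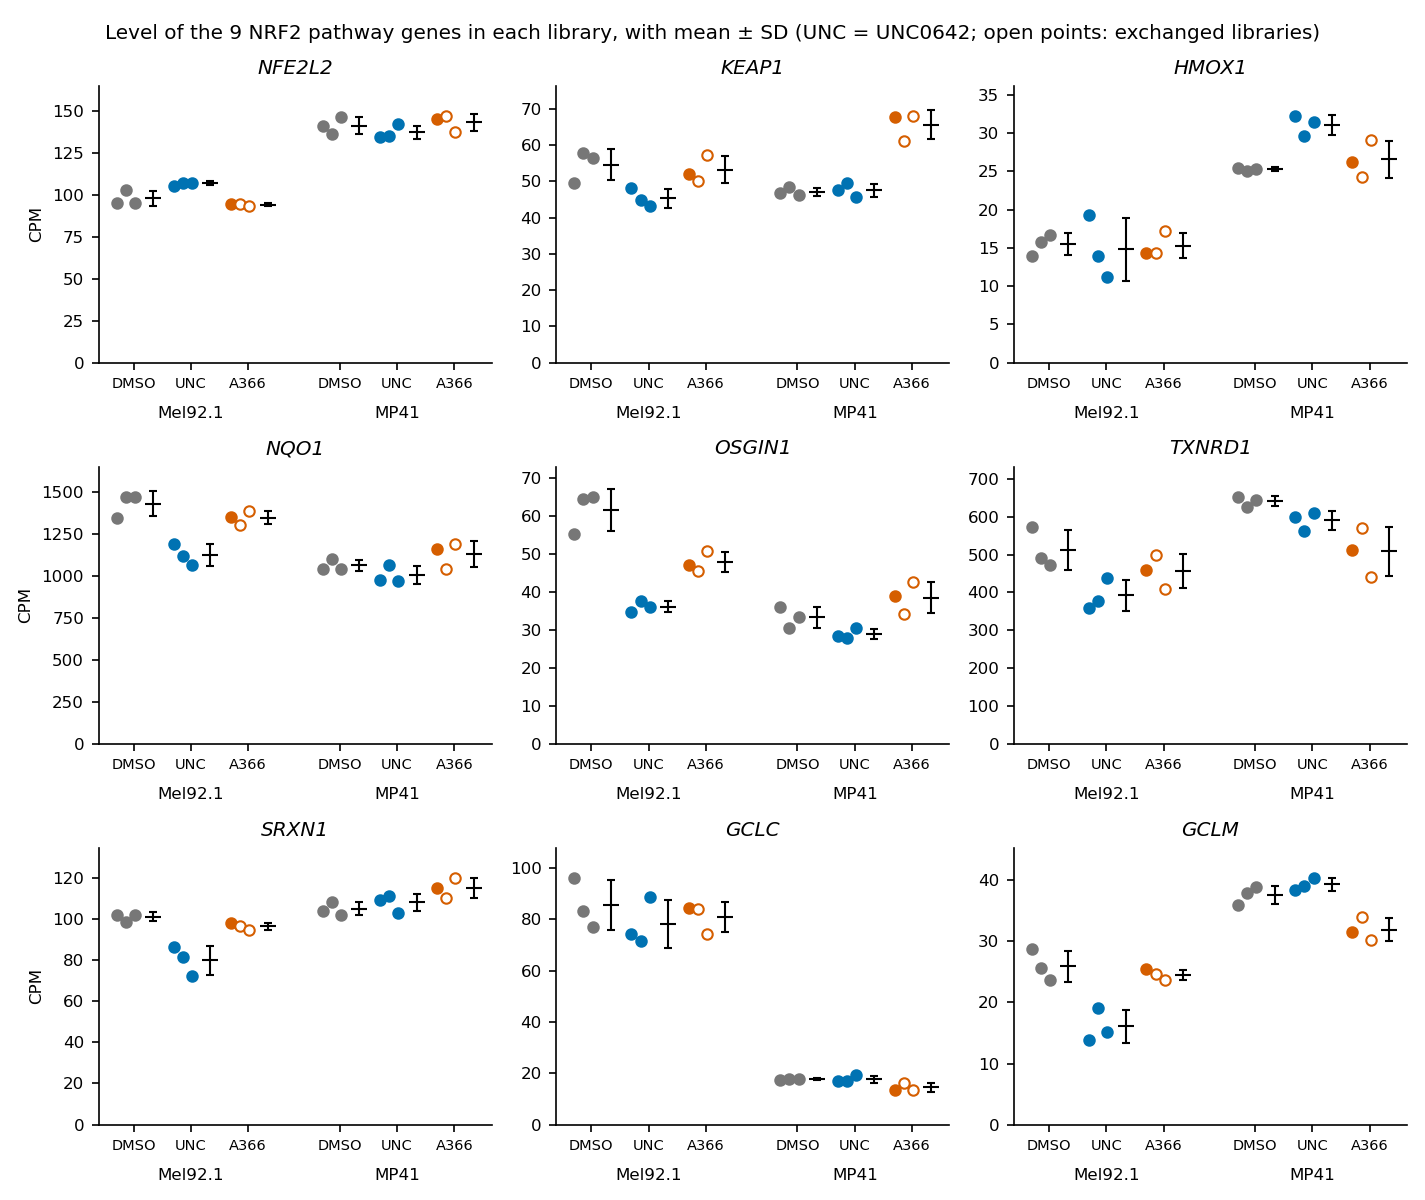
Level of the 9 genes in each of the 18 libraries, in CPM (linear axis from 0), with the mean and SD of the 3 libraries of a group in black and the 4 exchanged libraries as open points. In Mel92.1 the UNC0642 libraries of OSGIN1 (34.7 to 37.7 CPM) sit below those with DMSO (55.2 to 65.1), and in MP41 the A366 libraries of KEAP1 (61.1 to 68.1) sit above those with DMSO (46.1 to 48.3).

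UNC0642 was followed in Mel92.1 by lower OSGIN1 and NQO1, and A366 in MP41 by higher KEAP1 and lower TXNRD1, GCLM and GCLC. No gene of the 9 passed the test with A366 in Mel92.1 or with UNC0642 in MP41. NFE2L2 passed in no comparison with an inhibitor, and HMOX1, the heme oxygenase gene often used as a readout of NRF2, passed in none of the 4 comparisons with DMSO. Calls are at an adjusted p under 0.05 in edgeR's quasi-likelihood test, adjusted by Benjamini-Hochberg over all genes tested. The 2 inhibitors in a line share the same DMSO libraries.

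With UNC0642 in Mel92.1, 2 of the 9 genes were called, both lower, while 0.688% of 14528 genes were called and 0.138% were called lower. The UNC0642 and DMSO libraries did not overlap for 7 of the 9, of which 6 were lower and NFE2L2 was higher, beside 15.4% of all genes without overlap. The median log2 change was -0.34 over the 9 genes and -0.022 over all genes. Scaled by library size alone the median of all genes was -0.23, and NFE2L2 then stood at -0.092. With A366 in Mel92.1, 0 of 9 were called by edgeR, where edgeR called 0.213% of all genes. An unadjusted p under 0.05 was reached by 1 (OSGIN1), beside 628 of all 14528 genes. DESeq2 called 1 of the 9 and limma voom 2, and the shares of all genes these tools called are not given here. For 3 of the 9 the libraries did not overlap, beside 15.7% of all genes, and the median was -0.078 over the 9 and -0.0052 over all genes. With UNC0642 in MP41, 0 of 9 were called by edgeR, where edgeR called 0.241% of all genes. An unadjusted p under 0.05 was reached by 2, beside 1316 of all 14956 genes. DESeq2 called 0 of the 9 and limma voom 1, again without a share of all genes given here. There 3 of 9 did not overlap, beside 18.8% of all genes, with medians of -0.012 over the 9 and 0.0011 over all genes.

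With A366 in MP41, a large part of all genes passed the test. Of the 9 genes 4 were called (1 higher and 3 lower), where 46.0% of 14956 genes were called, 22.5% higher and 23.5% lower. The libraries did not overlap for 5 of 9, beside 58.0% of all genes, and the medians were 0.045 and 0.02. The share of the 9 genes called was thus close to that of all genes. Without the exchanged libraries KEAP1, TXNRD1, GCLM and GCLC were again those called, in the same directions. As labelled KEAP1 was not called, GCLC was called in the opposite direction, TXNRD1 and GCLM were called lower, and OSGIN1 was called higher (0.45, adjusted p 0.0339).

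**Figure D2:**
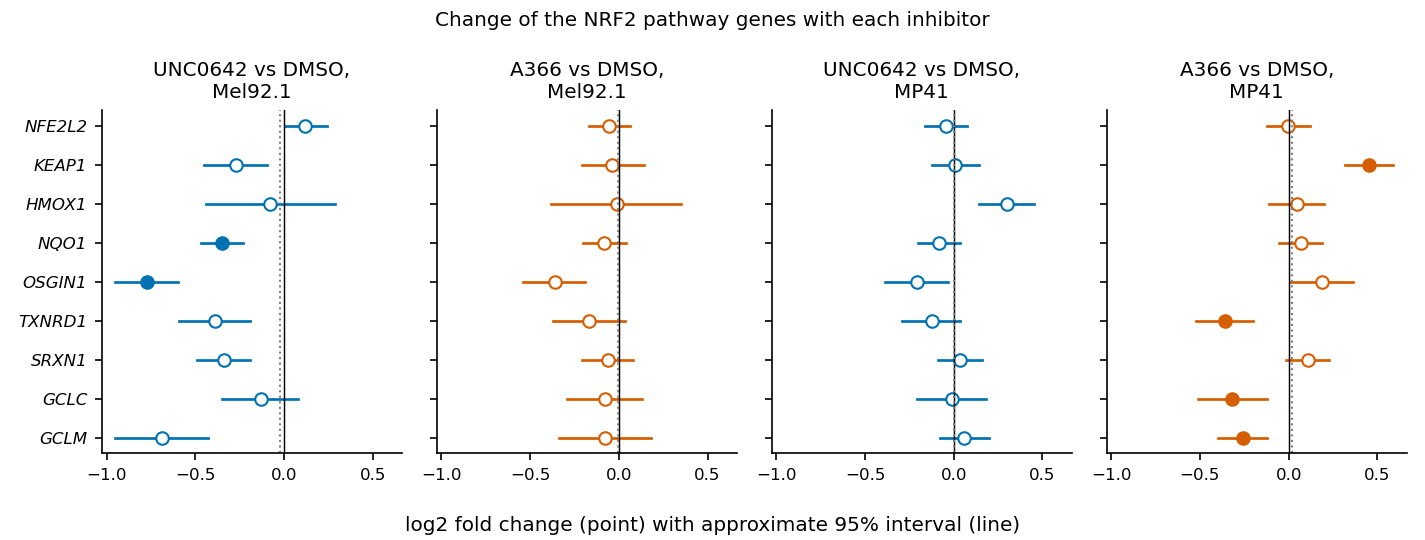
Log2 fold change of the 9 genes for each inhibitor against DMSO in each line (x axis), with an approximate 95% interval of 1 gene per line. The intervals use a normal quantile and are too narrow for 3 libraries a group. Filled points passed the test, and the dotted line is the median of all genes. In Mel92.1 with UNC0642, 8 of the 9 points lie below 0, with OSGIN1 at -0.77 and GCLM at -0.69, and in MP41 with A366 KEAP1 lies at 0.45 and TXNRD1 at -0.36.

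NFE2L2 encodes NRF2 (GRCh38 chromosome 2, 177227595 to 177392697, minus strand). In Mel92.1 its level was 95.2, 95.3 and 103 CPM in the DMSO libraries, 105, 107 and 107 for UNC0642 and 93.3, 94.4 and 94.6 for A366. The UNC0642 libraries were above and the A366 libraries below those with DMSO, without overlap and by little. The log2 change was 0.12 (SE 0.0592, adjusted p 0.538) with UNC0642 and -0.053 (SE 0.0591, adjusted p 1.0) with A366. In MP41 the level was 141 ± 4.95 CPM (SD, n = 3) with DMSO, 137 ± 3.96 with UNC0642 and 143 ± 5.26 with A366, with overlapping libraries. The change with A366 there was -0.0029, with an approximate 95% interval of -0.12 to 0.12. Without the exchanged libraries the change with A366 was -0.057 in Mel92.1 and 0.0029 in MP41, and as labelled 0.38 (adjusted p 0.205) and -0.34 (adjusted p 0.12). NFE2L2 overlaps 11 other annotated genes, and since the sources used here do not give whether the counting used strand, reads from them cannot be told apart.

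KEAP1, the adaptor that sends NRF2 to degradation (chromosome 19, 10486120 to 10503741, minus strand), was the 1 gene of the 9 that rose in a comparison with DMSO. In MP41 it had 46.1, 46.8 and 48.3 CPM in the DMSO libraries, and 45.6, 47.5 and 49.4 CPM in those of UNC0642. The A366 libraries had 61.1, 67.6 and 68.1 CPM, above every other library of either line. The rise was 1.37-fold (log2 0.45, SE 0.0677, adjusted p 0.000599). It was 0.48 (adjusted p 0.000438) without the 4 exchanged libraries and 0.32 (adjusted p 0.0511) as labelled. Leaving out any 1 library kept the call. KEAP1 transcripts hold 60.3% G and C, and with an offset for GC content the change was 0.19 (adjusted p 0.0213), with the GC and length offset 0.14 (adjusted p 0.0766). In Mel92.1 KEAP1 had 49.6, 56.3 and 57.8 CPM with DMSO, 43.1, 44.8 and 48.1 under UNC0642 and 50.2, 52.0 and 57.3 under A366. The UNC0642 libraries there were the lowest, at log2 -0.27 (SE 0.0906, adjusted p 0.343), and those with A366 overlapped DMSO. The change with A366 there was -0.036, and -0.076 without the exchanged libraries and 0.16 (adjusted p 0.449) as labelled.

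HMOX1 breaks down heme to biliverdin, iron and carbon monoxide (chromosome 22, 35380361 to 35394214, plus strand). In MP41 it had 25.0, 25.3 and 25.5 CPM with DMSO, 29.7, 31.5 and 32.3 under UNC0642 and 24.3, 26.2 and 29.1 under A366. The UNC0642 libraries were above both other groups without overlap, at log2 0.30 against DMSO (SE 0.0782), but the adjusted p was 0.232. In Mel92.1 it was lower, with 13.9, 15.8 and 16.7 CPM with DMSO, 11.2, 14.0 and 19.3 under UNC0642 and 14.3, 14.4 and 17.2 under A366. The highest UNC0642 value was that of replicate 1, the library that stood apart, and the lowest was that of replicate 3. With an offset for GC content the change with A366 in MP41, 0.045 without it, was -0.18 (adjusted p 0.0358), for a transcript with 58.1% G and C. It was 0.0093 (adjusted p 0.956) without the exchanged libraries and -0.39 (adjusted p 0.145) as labelled. In Mel92.1 it was -0.013, against -0.12 and 0.56 (adjusted p 0.25) in those fits.

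NQO1 reduces quinones to hydroquinones (chromosome 16, 69706996 to 69726951, minus strand). In Mel92.1 it had 1342, 1470 and 1471 CPM with DMSO, and 1065, 1115 and 1191 with UNC0642, all below DMSO. The fall was 21.5% (log2 -0.35, SE 0.0623, adjusted p 0.0367). In fits that left out 1 library the log2 change ran from -0.39 to -0.31 and passed in 2 of 9, the 2 being those without Mel92.1 DMSO replicate 1 and without UNC0642 replicate 1. In the other 7 the adjusted p ran up to 0.212, reached without DMSO replicate 2. It was -0.35 (adjusted p 0.191) without the 4 exchanged libraries. With A366 NQO1 had 1304, 1350 and 1384 CPM, which overlapped DMSO. In MP41 its groups overlapped, with 1061 ± 34.9 CPM for DMSO, 1003 ± 53.2 for UNC0642 and 1131 ± 78.1 for A366 (SD, n = 3). The change with A366 was -0.083 in Mel92.1 and 0.067 in MP41, and it was -0.088 and 0.088 without the exchanged libraries and -0.25 (adjusted p 0.231) and 0.29 (adjusted p 0.0573) as labelled.

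OSGIN1, an oxidative stress-induced growth inhibitor (chromosome 16, 83948282 to 83966332, plus strand), had the largest fall among the calls against DMSO. In Mel92.1 it had 55.2, 64.5 and 65.1 CPM with DMSO, 34.7, 35.9 and 37.7 under UNC0642 and 45.5, 47.1 and 50.7 under A366, and no 2 of these groups overlapped. UNC0642 lowered it by 41.5% (log2 -0.77, SE 0.0902, adjusted p 0.00345). This passed in each of the 9 fits that left out a library (adjusted p 0.00366 to 0.0312), among them the one without UNC0642 replicate 1, at -0.75 (adjusted p 0.00761). Without the 4 exchanged libraries it was -0.78 (adjusted p 0.0313), and as labelled -0.78 with an adjusted p of 0.987, where the A366 group of the same fit mixed both lines. The value for A366 was log2 -0.36 (SE 0.089, unadjusted p 0.00221, adjusted p 0.273), and -0.39 (adjusted p 1.0) without the exchanged libraries and -0.57 (adjusted p 0.162) as labelled. In MP41 OSGIN1 had 30.5, 33.3 and 36.1 CPM with DMSO, 27.8, 28.4 and 30.4 under UNC0642 and 34.2, 39.0 and 42.5 under A366. There A366 stood at log2 0.19 (adjusted p 0.113), at 0.18 (adjusted p 0.201) without the exchanged libraries, and at -0.26 (adjusted p 0.0207) with the GC and length offset, for a transcript with 63.4% G and C.

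TXNRD1, which uses NADPH to reduce thioredoxin (chromosome 12, 104215779 to 104350305, plus strand), fell with A366 in MP41. Its level was 626, 645 and 653 CPM with DMSO, 562, 598 and 611 under UNC0642 and 440, 513 and 570 under A366. The DMSO libraries lay above both others, and the A366 libraries spread most. The fall with A366 was 22.1% (log2 -0.36, SE 0.0823, adjusted p 0.00413). TXNRD1 was the steadiest of these calls, passing in each of 23 alternative fits, with changes from -0.46 to -0.20. These included the fits without the 4 exchanged libraries (-0.36, adjusted p 0.000465), as labelled (-0.43, adjusted p 0.0144) and with the GC and length offset (-0.20, adjusted p 0.02). In Mel92.1 it had 472, 490 and 572 CPM with DMSO, 359, 378 and 438 under UNC0642 and 410, 459 and 498 under A366. UNC0642 was below DMSO without overlap there, at log2 -0.39 (SE 0.102, adjusted p 0.19). A366 stood at -0.17 there, at -0.16 without the exchanged libraries and at -0.053 as labelled.

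SRXN1, sulfiredoxin, which restores overoxidized peroxiredoxins (chromosome 20, 646615 to 653370, minus strand), passed in no comparison in the fits used for the calls. In Mel92.1 it had 98.3, 102 and 102 CPM with DMSO, 72.1, 81.6 and 86.1 under UNC0642 and 94.4, 96.6 and 98.1 under A366. UNC0642 stood at log2 -0.34 (SE 0.0751, adjusted p 0.105), and at -0.39 (adjusted p 0.045) without UNC0642 replicate 1. In MP41 it had 105 ± 3.33 CPM with DMSO, 108 ± 4.18 with UNC0642 and 115 ± 4.66 with A366 (SD, n = 3). The change with A366 was -0.064 in Mel92.1 and 0.11 in MP41, -0.047 and 0.086 without the exchanged libraries, and 0.13 and -0.032 as labelled, none of which passed. SRXN1 and OSGIN1 each overlap 1 other protein-coding model on their strand in GENCODE, as TXNRD1 does EID3, so their counts are uncertain to that extent.

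GCLC, the catalytic subunit of glutamate-cysteine ligase (chromosome 6, 53497341 to 53616970, minus strand), showed the widest gap between the lines. It had 77.1, 83.2 and 96.2 CPM in Mel92.1 and 17.5, 17.9 and 17.9 CPM in MP41 with DMSO. In Mel92.1 the inhibitor groups overlapped DMSO, with 78.2 ± 9.30 CPM for UNC0642 and 81.0 ± 5.78 for A366 (SD, n = 3). In MP41 UNC0642 gave 16.9, 16.9 and 19.3 CPM, and A366 gave 13.5, 13.6 and 16.4, below both other groups. The fall with A366 was 19.9% (log2 -0.32, SE 0.0995, adjusted p 0.0205). This passed in 5 of 9 fits that left out a library, and it was -0.31 (adjusted p 0.0546) without DMSO replicate 2, -0.31 (adjusted p 0.0604) without DMSO replicate 3, -0.26 (adjusted p 0.0995) without A366 replicate 1 and -0.28 (adjusted p 0.067) without A366 replicate 3. Without the 4 exchanged libraries it was -0.44 (adjusted p 0.0151). As labelled the sign turned, to 1.71 (adjusted p 0.0451), since the labelled MP41 group then holds the libraries with 84.1 and 74.3 CPM. The GC offset gave -0.20 (adjusted p 0.094). In Mel92.1 the change with A366 was -0.078, and it was -0.025 without the exchanged libraries and -1.16 (adjusted p 0.245) as labelled.

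GCLM, the modifier subunit of the same enzyme (chromosome 1, 93885205 to 93909456, minus strand), passed the test with A366 in MP41. In Mel92.1 it had 23.6, 25.6 and 28.7 CPM with DMSO, 13.9, 15.2 and 19.1 under UNC0642 and 23.7, 24.6 and 25.4 under A366. The UNC0642 libraries were all below the others, at log2 -0.69 (SE 0.133, unadjusted p 0.000427, adjusted p 0.058). Without UNC0642 replicate 2 the value was -0.84 (adjusted p 0.0249), and in the other 8 fits that left out a library the test was not passed. A366 stood at -0.08 in Mel92.1, at -0.038 without the exchanged libraries and at 0.21 (adjusted p 0.451) as labelled. In MP41 GCLM had 36.0, 37.9 and 38.8 CPM with DMSO, 38.3, 39.1 and 40.4 under UNC0642 and 30.2, 31.5 and 33.9 under A366. The fall with A366 was 16.6% (log2 -0.26, SE 0.0706, adjusted p 0.00997), and it was -0.30 (adjusted p 0.0175) without the 4 exchanged libraries, -0.49 (adjusted p 0.0163) as labelled and -0.25 (adjusted p 0.051) without A366 replicate 1. GCLM transcripts hold 37.3% G and C, the lowest of the 9. The value was 0.041 (adjusted p 0.599) after an offset for GC content, so the direction of this call rests on that setting.

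**Figure D3:**
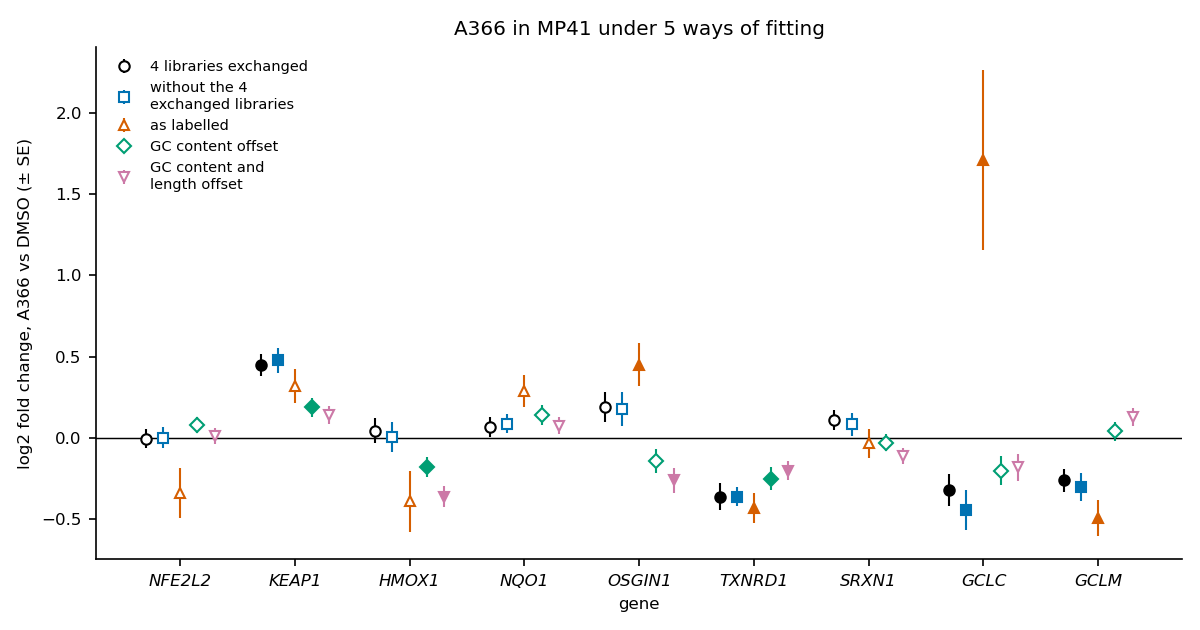
Log2 fold change of the 9 genes with A366 against DMSO in MP41 (y axis, bars are SE) in 5 fits, with filled points past the test. TXNRD1 is below 0 and filled in each of the 5, KEAP1 shrinks from 0.45 to 0.14 with the GC and length offset, GCLM crosses 0 and GCLC as labelled stands at 1.71.

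The 2 inhibitors were also compared with each other at the matched dose and time. In Mel92.1, 0 of 9 genes differed between A366 and UNC0642 by edgeR, where edgeR called 0.165% of all genes. An unadjusted p under 0.05 was reached by 6 of the 9, beside 1047 of all 14528 genes. DESeq2 and limma voom each called 4 of the 9, and the shares of all genes these tools called are not given here. For 6 of 9 the libraries did not overlap, beside 14.5% of all genes, 5 of them higher with A366 and NFE2L2 lower. The approximate 95% interval of the log2 difference was 0.35 to 0.87 for GCLM (adjusted p 0.159), 0.23 to 0.59 for OSGIN1 (adjusted p 0.165) and 0.14 to 0.39 for NQO1 (adjusted p 0.211). Their differences of 0.61, 0.41 and 0.27 were 0.65, 0.38 and 0.26 without the exchanged libraries and 0.90, 0.21 and 0.10 as labelled, with no member called in either fit. In MP41, 6 of 9 differed, 2 higher and 4 lower with A366, where 43.1% of all genes were called, 21.1% higher and 22.0% lower. For 5 of 9 the libraries did not overlap there, beside 51.6% of all genes. KEAP1 was higher at log2 0.44 (SE 0.0677, adjusted p 0.000567) and OSGIN1 at 0.39 (SE 0.0909, adjusted p 0.0047). GCLM was lower at -0.32 (adjusted p 0.00365), GCLC at -0.31 (adjusted p 0.0253), HMOX1 at -0.25 (adjusted p 0.0212) and TXNRD1 at -0.24 (adjusted p 0.0349).

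Of these 6 differences in MP41, KEAP1, OSGIN1 and GCLM passed in each fit that left out a library. TXNRD1 passed in 2 of 9, with changes from -0.33 to -0.15, and did not without any DMSO library, UNC0642 replicate 1 or 3, or A366 replicate 1 or 3 (adjusted p 0.0525 to 0.112). HMOX1 passed in 6 of 9 and was -0.22 (adjusted p 0.0748) without UNC0642 replicate 1, -0.24 (adjusted p 0.0608) without UNC0642 replicate 3 and -0.23 (adjusted p 0.0861) without A366 replicate 1. GCLC passed in 6 of 9 and was -0.24 (adjusted p 0.106) without UNC0642 replicate 3, -0.25 (adjusted p 0.12) without A366 replicate 1 and -0.27 (adjusted p 0.0779) without A366 replicate 3. With the 4 exchanged libraries left out, which leaves 1 A366 library, the 6 kept their sign, KEAP1 at 0.47, OSGIN1 at 0.39, GCLM at -0.36, GCLC at -0.43, HMOX1 at -0.29 and TXNRD1 at -0.24. As labelled GCLC stood at 1.73 (adjusted p 0.046), KEAP1 at 0.31 (adjusted p 0.0579), OSGIN1 at 0.66, GCLM at -0.55, HMOX1 at -0.68 and TXNRD1 at -0.30. With an offset for GC content 4 of the 6 were not called, OSGIN1 at 0.11 (adjusted p 0.26), GCLM at -0.033 (adjusted p 0.679), GCLC at -0.19 (adjusted p 0.106) and TXNRD1 at -0.13 (adjusted p 0.15). KEAP1 at 0.22 (adjusted p 0.0119) and HMOX1 at -0.45 (adjusted p 0.000352) were called, as was NQO1 at 0.22 (adjusted p 0.0149). The GC and length offset left TXNRD1 at -0.082 (adjusted p 0.307).

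The lines were set against each other through an interaction term, with MP41 subtracted from Mel92.1. For UNC0642, 1 of 9 was called, GCLM, where 0.601% of 15799 genes were called and 0.12% were called lower, with medians of -0.28 over the 9 and -0.021 over all genes. Its change was -0.69 in Mel92.1 and 0.059 in MP41, a difference of -0.75 (SE 0.143, adjusted p 0.0173). OSGIN1 followed at -0.56 (SE 0.131, adjusted p 0.0676) and SRXN1 at -0.38 (SE 0.0911, adjusted p 0.0915). For A366, 2 of 9 were called, where 13.8% of all genes were called and 8.67% were called lower, with medians of -0.085 and -0.025. KEAP1 differed by -0.52 (SE 0.108, adjusted p 0.00802), from 0.45 in MP41 and -0.036 in Mel92.1. OSGIN1 differed by -0.58 (SE 0.13, adjusted p 0.0115), from 0.19 in MP41 and -0.36 in Mel92.1.

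Without the 4 exchanged libraries the 3 differences kept their size and missed the threshold, with GCLM at -0.75 (adjusted p 0.0963), KEAP1 at -0.59 (adjusted p 0.0795) and OSGIN1 at -0.61 (adjusted p 0.107). As labelled OSGIN1 was -1.01 (adjusted p 0.0047), KEAP1 -0.17 (adjusted p 0.415) and GCLM -0.75 (adjusted p 1.0). With an offset for GC content GCLM was -0.79 (adjusted p 0.00688), while KEAP1 was -0.21 (adjusted p 0.116) and OSGIN1 -0.17 (adjusted p 0.393). In fits that left out 1 library, KEAP1 passed in 18 of 18. OSGIN1 passed in 17, all but the one without Mel92.1 DMSO replicate 3 (-0.53, adjusted p 0.0503). GCLM passed in 12. The 6 without it were those without MP41 DMSO replicate 1 (-0.72, adjusted p 0.0728), MP41 UNC0642 replicate 2 or 3 (-0.75 and -0.73), Mel92.1 DMSO replicate 1 or 2 (-0.67 and -0.76) and Mel92.1 UNC0642 replicate 3 (-0.69).

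More of these genes differed between the lines with DMSO than in any comparison of treatments. Of the 9, 8 differed, 4 higher and 4 lower in Mel92.1, where 69.4% of 15799 genes differed, 34.5% higher and 34.8% lower. The DMSO libraries of the lines did not overlap for the same 8, beside 77.4% of all genes. GCLC was 4.81-fold higher in Mel92.1 (log2 2.26, SE 0.109, adjusted p 5.59e-12), and in 30 alternative fits this ran from 2.07 to 2.43. OSGIN1 was 1.85-fold higher (log2 0.89, adjusted p 1.55e-07), NQO1 1.35-fold (log2 0.43, adjusted p 9.8e-06) and KEAP1 1.16-fold (log2 0.21, adjusted p 0.0196). HMOX1 was 38.8% lower in Mel92.1 (log2 -0.71, adjusted p 0.000286), GCLM 30.9% (log2 -0.53, adjusted p 0.00014), NFE2L2 30.6% (log2 -0.53, adjusted p 9.9e-08) and TXNRD1 20.2% (log2 -0.33, adjusted p 0.00713). SRXN1 stood at -0.057, with an approximate 95% interval of -0.18 to 0.069, and was called lower in alternative fits given below.

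The 2 subunits of glutamate-cysteine ligase thus stood in opposite order between the lines. Per kilobase, GCLC was at 22.4 and GCLM at 5.34 CPM per kb in Mel92.1, and GCLC was at 4.67 and GCLM at 7.74 in MP41. With an offset for GC content GCLC was 2.41 and GCLM -0.12 (adjusted p 0.284), KEAP1 turned to -0.29 (adjusted p 0.000102) and OSGIN1 was 0.19 (adjusted p 0.0373). The GC and length offset left OSGIN1 at 0.11 (adjusted p 0.261). SRXN1 was lower in Mel92.1 with the GC offset (-0.28, adjusted p 0.000369) and with the GC and length offset (-0.35, adjusted p 7.38e-05). Scaled by library size alone SRXN1 was -0.26 (adjusted p 0.0187). The line difference of KEAP1 also missed the threshold with DESeq2 (0.17, adjusted p 0.054), with RLE factors (0.17, adjusted p 0.066), scaled by library size alone (0.013, adjusted p 0.911), as labelled (0.21, adjusted p 0.134), and without MP41 DMSO replicate 3 (0.20, adjusted p 0.0576), Mel92.1 DMSO replicate 2 (0.19, adjusted p 0.0716) or Mel92.1 DMSO replicate 3 (0.20, adjusted p 0.0591).

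**Figure D4:**
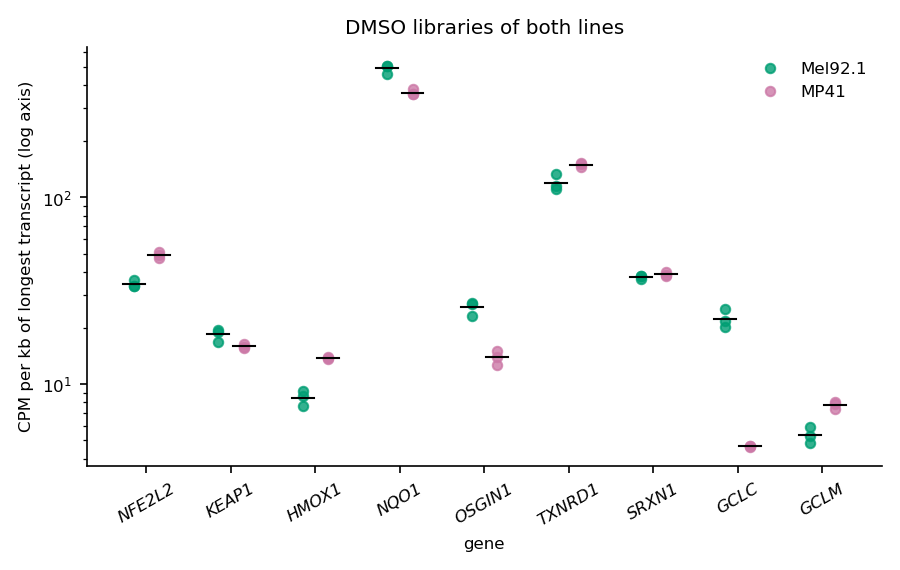
Level of the 9 genes in the 3 DMSO libraries of each line, in CPM per kilobase of the longest transcript on a log axis, with black bars at the means. GCLC is at 22.4 in Mel92.1 and 4.67 in MP41, and NQO1 is the highest gene in both lines at 490 and 364.

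Ordered by level over the 6 groups, 4 of the 9 genes separated the lines at every treatment. The share of all genes that did so was not counted, so the 4 are a description and not a result about these genes. With DMSO alone, 77.4% of all genes did not overlap between the lines. NFE2L2 and HMOX1 were higher in each MP41 group than in any Mel92.1 group, without overlap of libraries, and GCLC was higher in each Mel92.1 group. GCLM, the fourth, was also higher in each MP41 group. From the top its groups were MP41 UNC0642 (39.3 CPM), MP41 DMSO (37.6), MP41 A366 (31.9), Mel92.1 DMSO (25.9), Mel92.1 A366 (24.5) and Mel92.1 UNC0642 (16.1). The libraries of MP41 UNC0642 and MP41 DMSO overlapped, as did those of Mel92.1 DMSO and Mel92.1 A366. For TXNRD1 only MP41 DMSO (641 CPM) stood clear of its neighbor, MP41 UNC0642 (590), and the 5 lower groups overlapped each in turn down to Mel92.1 UNC0642 (392).

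Other genes of the pathway were taken as 7 lists, with 74 genes in the table, of which 67 passed the filter in Mel92.1 and 68 in MP41. With UNC0642 in Mel92.1, 1 of 67 was called, higher, where 0.688% of all genes were called. The median change was -0.041 over the lists and -0.022 over all genes. The called gene was IDH1, a cytosolic source of NADPH, with 721, 736 and 739 CPM with DMSO, 1081, 1090 and 1140 under UNC0642 and 731, 741 and 751 under A366. UNC0642 raised it by 50.3% (log2 0.59, SE 0.0471, adjusted p 0.000415), and the 9 fits that left out a library each called it, as did the fit without the 4 exchanged libraries. Scaled by library size alone it was 0.37 (adjusted p 0.369), and as labelled 0.59 (adjusted p 1.0). With A366 in Mel92.1, 1 of 67 was called, where 0.213% of all genes were called. It was ABCC2, an exporter of glutathione conjugates, from 14.5 ± 1.98 to 28.2 ± 3.09 CPM (SD, n = 3), 1.95-fold (adjusted p 0.0189). ABCC2 passed in 3 of 9 fits that left out a library and stood at 0.93 (adjusted p 1.0) without the exchanged libraries and at 2.33 (adjusted p 0.162) as labelled. In MP41 it fell with A366, by 0.42 on the log2 scale (adjusted p 0.00561). With UNC0642 in MP41, 1 of 68 was called, where 0.241% of all genes were called. It was TXNIP, the inhibitor of thioredoxin, from 43.4 ± 3.01 to 60.3 ± 3.28 CPM, 1.39-fold (adjusted p 0.0385). TXNIP passed in 2 of 9 fits that left out a library.

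With A366 in MP41, 47 of 68 list genes were called, 37 higher and 10 lower, where 46.0% of all genes were called, 22.5% higher and 23.5% lower. The median was 0.28 over the lists and 0.02 over all genes. Of the 14 glutathione genes tested 9 were higher and 0 lower, of the 11 thioredoxin and peroxiredoxin genes 6 and 0, of the 9 heme and iron genes 7 and 1, of the 13 detoxification and export genes 5 and 4, and of the 11 genes that control NRF2 5 and 4. Of 6 genes for NADPH supply 3 were higher and 1 lower, and of 4 superoxide dismutase and catalase genes 2 were higher. The largest were PRDX5, a peroxiredoxin, from 98.2 ± 2.99 to 180 ± 29.3 CPM (log2 0.85, adjusted p 0.00026), SOD3, the extracellular superoxide dismutase, from 49.2 ± 1.63 to 88.7 ± 17.6 (log2 0.82, adjusted p 0.000453), and SLC7A11, the cystine importer, from 36.3 ± 1.38 to 64.6 ± 11.9 (log2 0.81, adjusted p 0.00045). In Mel92.1 SLC7A11 had 24.0 ± 4.46 CPM with DMSO, 13.3 ± 3.31 with UNC0642 (adjusted p 0.0905) and 15.1 ± 1.14 with A366 (adjusted p 0.384). Without the exchanged libraries 41 list genes were called in MP41 with A366, 31 higher and 10 lower, and as labelled 27, with SLC7A11 at -0.26, PRDX5 at 1.51 and SOD3 at 0.58. With an offset for GC content 28 were higher and 6 lower, and with the GC and length offset 21 and 11, where SOD3 was 0.16 (adjusted p 0.0524) and PRDX5 remained called. The shares of all genes called in these alternative fits are not given here, so their splits are not set against them.

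**Figure D5:**
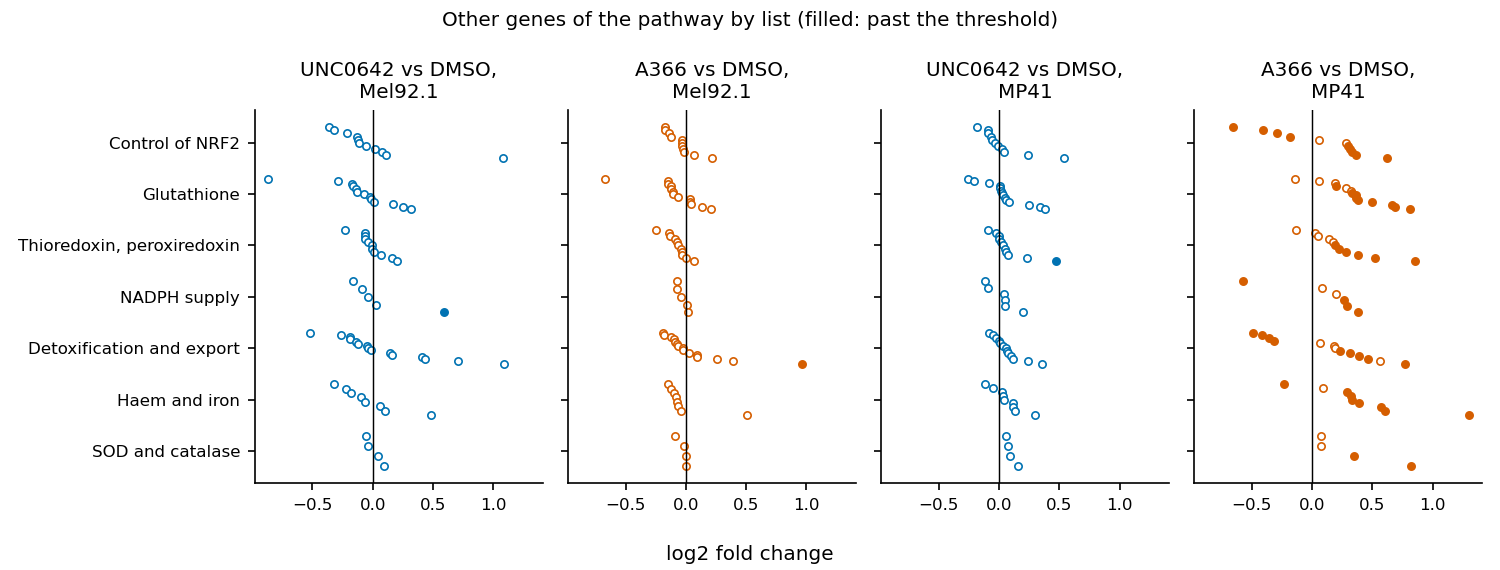
Log2 fold change of the other pathway genes in 7 lists for each inhibitor against DMSO (x axis), 1 point per gene, filled where the test was passed. In 3 of the 4 comparisons 1 point is filled, and in MP41 with A366 37 are filled to the right of 0 and 10 to the left.

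Between the lines with DMSO, 54 of 70 list genes differed, 29 higher and 25 lower in Mel92.1, where 69.4% of all genes differed, 34.5% higher and 34.8% lower, so that the share was near that of all genes. The largest were ME1, the cytosolic malic enzyme that supplies NADPH, GPX1, the main cytosolic glutathione peroxidase, and NFE2L3, a relative of NFE2L2. ME1 had 0 counts in the DMSO libraries of Mel92.1 and 41.8 ± 2.95 CPM in MP41 (SD, n = 3), at least 573-fold lower in Mel92.1 against a floor of 3 counts per library. GPX1 had 8 counts in all over the 3 Mel92.1 libraries with DMSO, against 19238 over those of MP41. NFE2L3 was at 1.59 ± 0.292 CPM in Mel92.1 and 62.5 ± 1.95 in MP41 (log2 -5.29, SE 0.359, adjusted p 5.56e-10). The cause of the near absence of ME1 and GPX1 counts in 1 line was not tested.

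How the members varied together is given as a description over the 18 libraries, after each gene was centered on the mean of its line. The points share their libraries and depth. Centering left the differences between treatments in, so r also carries the group changes given above. The points include the Mel92.1 UNC0642 libraries with 32.79% and 19.54% of counts on ribosomal RNA genes. SRXN1 went with NQO1 (Pearson r 0.883), OSGIN1 with NQO1 (0.871) and TXNRD1 with GCLC (0.840). KEAP1 went with NQO1 (0.772) and against GCLC (-0.657), and NFE2L2 went against SRXN1 (-0.692) and GCLM (-0.653). GCLC and GCLM had an r of 0.497, and GCLM and TXNRD1 one of 0.741. Among all other genes tested, those most like NFE2L2 were IDH1 (0.789), ZFAND5 (0.774), NT5DC3 (0.772), FAM78A (0.770) and RAB7A (0.768). Those most like HMOX1 were SMYD5 (0.843), ZWINT (0.837), EME1 (0.834), MANSC1 (0.825) and FANK1 (0.807). The mean of the 7 targets was most like OLFML2A (0.887), KCP (0.884), CHADL (0.858), CASC1 (0.855) and FAM65B (0.850).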

How the data were processed

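RNA-seq libraries of Mel92.1 and MP41 cells were analyzed from 1 table of RSEM expected counts per gene symbol, deposited by the authors (26475 rows, 5.85% to 13.4% of values per library not whole), and 0 sample columns were left unused. The submitters' notes name hg38, Bowtie2 2.1.0 and RSEM 1.2.15, while the study's methods name Bowtie2 with TopHat, a mouse build and FPKM from Cufflinks. The annotation and the strand setting of the counting are not given in the sources used here, although the kit marks strand by dUTP.

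Expected counts were rounded. Genes were filtered by filterByExpr, scaled by TMM and tested by edgeR 4.0.16 quasi-likelihood (R 4.3.3), with 9 libraries per line for differences within a line and 18 for interactions and the line difference. P-values were adjusted by Benjamini-Hochberg over all genes tested, with a threshold of 0.05. Intervals are estimate ± normal quantile × SE, with SE from the F statistic. With so few libraries they are narrower than the quasi-likelihood test implies. Some exclude 0 where its unadjusted p exceeds 0.05, as for OSGIN1 with A366 in MP41 (0.0079 to 0.36, p 0.0628). The p-values measure the spread between these libraries, which may be technical. The scripts were tested on simulated data. Alternatives were DESeq2 1.42.0, limma 3.58.1 voom with quality weights, RLE, library size alone, other filters, a replicate block, GC offsets, other sets of libraries and leaving out each library. The offset for GC and length was added after the data were seen. GC content, transcript length and positions came from GENCODE 29 (24628 rows had a GC value), promoter windows from RefSeq (GRCh38.p14).

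The members and lists were chosen with earlier results of these data known. Members are described in full. Other pathway genes were named by rule: those called in the same direction in at least 3 of the 4 comparisons with DMSO (none met this), and up to 3 called with the largest change in each of these and between the lines, with at least 1 CPM in a group. Figures were drawn with matplotlib 3.10.9.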

Additional observations from a re-analysis of the deposited data

Results flagged for a closer look

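Differences in response between the lines drew attention in 3 cases, each by the interaction test, as Mel92.1 minus MP41 on the log2 scale. GCLM differed by -0.75 with UNC0642 (3 of 3 UNC0642 libraries below DMSO in Mel92.1, overlapping in MP41). KEAP1 differed by -0.52 with A366 (3 of 3 A366 libraries above DMSO in MP41, overlapping in Mel92.1). OSGIN1 differed by -0.58 with A366 (3 of 3 A366 libraries below DMSO in Mel92.1, overlapping in MP41). None of the 3 passed without the 4 exchanged libraries.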

How the results depend on the processing

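Of the alternatives for values of single members, 1808 kept direction and side of the threshold, 90 lost the call, 66 gained it, 73 changed sign with no call in either fit and 15 changed sign with a call in at least 1 of the fits. As labelled, the number of members called was 0 for UNC0642 in Mel92.1 (2 in the report), 0 for the UNC0642 interaction (1) and 6 for the A366 interaction (2); the labelled A366 groups hold libraries of both lines. Without the 4 exchanged libraries these were 1, 0 and 0. In Mel92.1 DESeq2 called 5 for UNC0642, 1 for A366 and 4 for A366 against UNC0642, and it called 3 for the UNC0642 interaction. Limma voom called 6, 2, 4 and 6 there, 1 for UNC0642 in MP41, 7 for A366 in MP41 and 8 for the A366 interaction. Library size alone gave 1 for UNC0642 in Mel92.1 and 0 for both interactions, and moved the split of all genes called from 3160 higher and 3290 lower to 2385 and 3893 for A366 against UNC0642 in MP41, from 15 and 9 to 9 and 1 for the same in Mel92.1, from 76 and 19 to 14 and 11 for the UNC0642 interaction and from 810 and 1369 to 257 and 225 for the A366 interaction. The GC offset gave 3 for A366 against UNC0642 in MP41 and 0 for the A366 interaction, and so did the GC and length offset, which gave 4 for UNC0642 in Mel92.1 and 1 for A366 against UNC0642 in Mel92.1. Only the 6 libraries compared gave 1 for UNC0642 in Mel92.1 and 3 for A366 against UNC0642 in MP41, and all 18 in 1 fit gave 4 for UNC0642 in Mel92.1 and 2 for A366 against UNC0642 in Mel92.1. The cause was not tested. Most of these counts, and those of the next paragraph, stand without the share of all genes called in the same fit. They are therefore not read as a result about the 9 genes.

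The replicate numbers do not pair the libraries (correlations of same-numbered deviations -0.14 to 0.151). A replicate block gave 1 for UNC0642 in Mel92.1, and with the GC offset 1 there, 2 for A366 in MP41, 3 for A366 against UNC0642 in MP41 and 0 for the A366 interaction. Leaving out 1 library gave 1 to 3 for UNC0642 in Mel92.1, 0 to 0 for A366 in Mel92.1, UNC0642 in MP41 and A366 against UNC0642 in Mel92.1, 2 to 5 for A366 in MP41, 3 to 7 for A366 against UNC0642 in MP41, 0 to 2 and 1 to 2 for the UNC0642 and A366 interactions, and 7 to 8 for the line difference.

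Values that turned sign with a call in at least 1 fit were, as labelled, GCLC at 1.71 (A366 in MP41), 1.73 (A366 against UNC0642 in MP41) and -2.85 (A366 interaction), NFE2L2 at 0.71 and HMOX1 at 0.94 (A366 interaction), and SLC7A11 at -0.26 (A366 in MP41). With the GC offset KEAP1 was -0.29 between the lines (-0.29 with the replicate block, -0.34 with length), HMOX1 -0.18 for A366 in MP41 (-0.36 with length) and GCLM 0.041 there (0.041 with the replicate block, 0.13 with length). With the GC and length offset GCLM was 0.055 for A366 against UNC0642 in MP41 and OSGIN1 -0.26 for A366 in MP41. With 3 libraries a group and a biological coefficient of variation of 0.175 in Mel92.1 and 0.109 in MP41, a p that misses the threshold does not show that values did not differ.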
